A study of Mus musculus with 4 samples.

Results

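Smooth muscle and contractile genes were followed by RNA-seq in mouse embryonic fibroblasts that received reprogramming factors or an empty vector. The 10 genes were taken from a list of names, as actins of muscle (Acta2, Actg2, Actc1), tropomyosins (Tpm1, Tpm2), actin-binding proteins of the contractile apparatus (Cnn1, Cnn2, Tagln, Cald1) and a myosin light chain (Myl9). All 10 were found in each of the 3 deposited tables, among 27597 genes listed in at least 1 of them. The cells came from the skin of OGXICR mouse embryos at D13.5, with the epidermis taken off, were grown in medium with serum and carried a doxycycline-inducible lentiviral system in every group. The groups were infected with an empty vector, with SKM (Sox2, Klf4 and c-Myc), with OSKM, which adds Oct4, or with G3SKM, read here as Gata3 with the same 3 factors. Each group has 1 value per gene, which stands for 2 replicates, so no spread between replicates can be given and no test was made. The sources used here do not give the time after infection or the share of infected cells.

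Contractile cells pull on thin filaments of actin, along which tropomyosin lies, and myosin II is switched on by phosphorylation of its regulatory light chain. Fibroblasts in serum-rich culture build such filaments into stress fibres, and cells with much smooth muscle actin are called myofibroblasts. Many genes of this apparatus are regulated by serum response factor (SRF), which binds a DNA element known as the CArG box, and by TGF-beta signalling.

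The promoters are shown because this element is the best known feature that contractile genes share. RefSeq promoter windows of build GRCm38.p6, from 250 bases before to 50 after the start site, were matched by symbol for 8 of the 10 genes (not for Tagln and Actg2), with 9 windows because Cald1 has 2. A CArG box was searched on both strands as CC, 6 bases that are each A or T, then GG. It was present in 3 of the 9 windows (Actc1, Myl9 and Cnn2) and in 1.63% of 32851 windows of the genome's genes. A CArG-like form, with 1 G or C among the 6 central bases, was searched in the same way, and one form or the other was present in 4 of the 9 windows and in 9.98% of all windows. The 4 windows with a match are printed 5′ to 3′ on the gene's strand, up to the base before the start, with every CArG box or CArG-like match in capitals. They lie at chr19:34255374-34255623 on the minus strand (Acta2), chr2:114052876-114053125 on the minus strand (Actc1), chr2:156775214-156775463 on the plus strand (Myl9) and chr10:79988350-79988599 on the plus strand (Cnn2).
Acta2: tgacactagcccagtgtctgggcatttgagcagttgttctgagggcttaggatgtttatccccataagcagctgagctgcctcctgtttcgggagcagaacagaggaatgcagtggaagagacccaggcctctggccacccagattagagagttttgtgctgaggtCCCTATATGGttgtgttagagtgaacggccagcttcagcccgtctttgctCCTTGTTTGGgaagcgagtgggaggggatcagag
Actc1: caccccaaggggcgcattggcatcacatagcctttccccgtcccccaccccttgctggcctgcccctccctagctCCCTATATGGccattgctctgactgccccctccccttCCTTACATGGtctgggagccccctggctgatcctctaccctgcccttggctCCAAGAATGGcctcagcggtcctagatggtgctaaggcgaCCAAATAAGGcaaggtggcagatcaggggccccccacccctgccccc
Myl9: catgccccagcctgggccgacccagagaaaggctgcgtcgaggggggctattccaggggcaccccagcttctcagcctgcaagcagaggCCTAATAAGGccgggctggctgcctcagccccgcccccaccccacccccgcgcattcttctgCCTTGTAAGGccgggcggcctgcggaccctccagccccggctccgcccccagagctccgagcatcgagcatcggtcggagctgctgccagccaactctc
Cnn2: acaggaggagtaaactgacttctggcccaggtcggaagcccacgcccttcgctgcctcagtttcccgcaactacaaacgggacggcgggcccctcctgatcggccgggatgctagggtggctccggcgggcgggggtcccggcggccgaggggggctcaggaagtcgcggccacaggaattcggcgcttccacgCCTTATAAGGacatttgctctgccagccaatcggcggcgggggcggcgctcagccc
Acta2 has 2 CArG-like matches, Actc1 has 4 matches of either form, Myl9 has 2 and Cnn2 has 1. The letters CATTCC, which TEAD factors are known to bind and whose matches did not overlap those above, were present on one strand or the other in 3 windows (Acta2, Tpm1 and Cald1) and in 14.7% of all windows. A match is a description of these letters and not evidence of binding, and its relation to the expression values was not tested.

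Library depth, recovered from the smallest steps in the values, was 54050000 to 111150000 reads per group, to the nearest 10000, and the 10 genes had between 112 and 410218 reads per group. Besides the added factor, the levels of Sox2, Klf4 and Myc differed between the groups that received them. Sox2 was at 0.260 RPKM with empty vector, 187 with SKM, 110.5 with OSKM and 70.7 with G3SKM. Klf4 was at 6.26, 19.3, 13.9 and 8.55 RPKM and Myc at 16.0, 11.9, 10.5 and 6.31 in the same order of groups. Pou5f1, which encodes OCT4, was at 3.69 RPKM in OSKM and at most 0.297 elsewhere, and Gata3 was at 0.571 RPKM in G3SKM and at most 0.0836 elsewhere. RPKM are reads scaled to the length of the gene and the size of the library. The deposited values divide by the whole span of a gene with its introns, so levels of different genes are compared below only after rescaling to exon length.

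The smooth muscle label was checked against other genes of differentiated smooth muscle. On the exon-length scale, Acta2 and Tagln stood at 1681 and 1174 RPKM in empty vector, ranks 22 and 57 among all genes with a length. Exon-length levels and ranks of Acta2, Tagln and Cnn1 are approximate, because the span behind their deposited values may differ from the one used here. The smooth muscle myosin heavy chain Myh11 was at 9.52 RPKM in empty vector, and Myocd, the smooth muscle coactivator of SRF, at 0.562. Lmod1, a leiomodin of smooth muscle, was at 23.9 RPKM, Smtn (smoothelin) at 26.0 and Des (desmin) at 11.7. Levels of Acta2 and Tagln were thus high and levels of these other smooth muscle markers far lower in these cultures. Between them lay 2 of the 10 genes that are also tied to smooth muscle, Actg2 at 158 RPKM (rank 558) and Cnn1 at 66.0 (rank 1132). The 10 genes are described here as contractile genes of fibroblasts rather than as evidence of smooth muscle cells.

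In the order of their exon-length levels in empty vector, Acta2 and Tagln were followed by Myl9 at 491 RPKM, Tpm1 at 274, Cnn2 at 264, Tpm2 at 218, Actg2 at 158, Cald1 at 136, Cnn1 at 66.0 and Actc1 at 6.68. Acta2, Tagln and Myl9 kept the first 3 places in all 4 groups, and Cnn1 and Actc1 the last 2. With 1 value per group, whether neighbours such as Tpm1 and Cnn2 differ beyond the spread between replicates cannot be given.

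**Figure D1:**
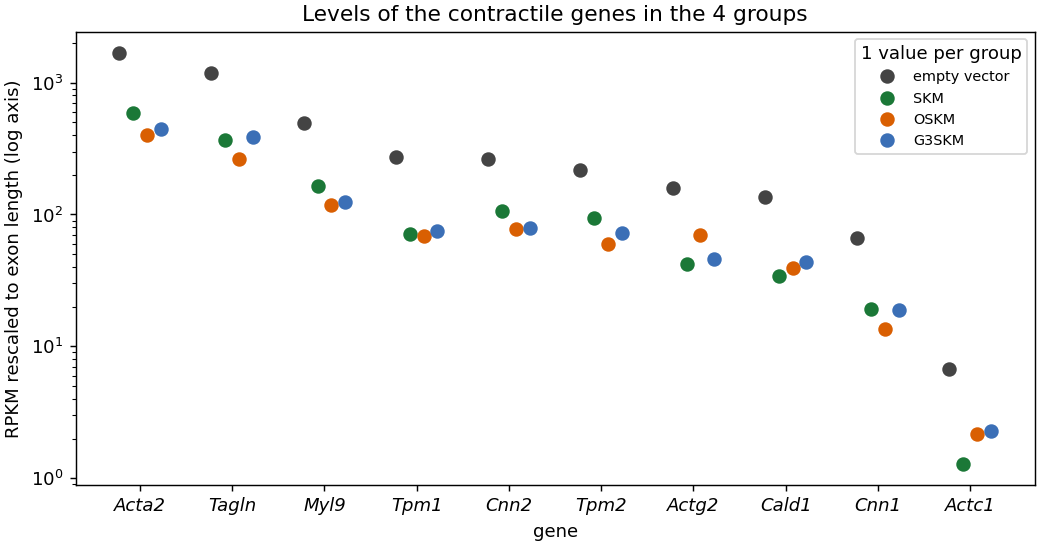
Level of each contractile gene in the 4 groups, as RPKM rescaled to exon length on a log axis, with 1 point per group and no error bars because each group has 1 value. The empty vector point is the highest for all 10 genes, and the 3 groups that received factors lie below it.

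All 10 genes were lower in the cells that received SKM than in empty vector. A gene was called lower when the log2 ratio of RPKM + 1 was -1 or less, and higher when it was 1 or more, provided that one group or the other reached 1 RPKM. All 10 passed that filter and were called lower, where 5.98% of 10195 genes were called lower and 8.88% higher. Actc1 passed it only through its empty vector value, 1.73 RPKM against 0.331 with SKM, so it could only come out lower. The same holds for Actc1 with OSKM (0.564 RPKM) and G3SKM (0.594 RPKM) below. The median log2 ratio of the 10 genes was -1.57, and that of all genes was 0.15. Against empty vector, 9 of 10 were called lower with OSKM (4.16% of 10212 genes lower and 4.82% higher, median -1.87) and 9 of 10 with G3SKM (3.75% of 10298 genes lower and 7.11% higher, median -1.61), Actc1 being the exception in both. These comparisons share the empty vector value, and those against SKM given further on share the SKM value. The 10 genes were chosen with earlier results of these data known, so the counts beside the shares of all genes are a description and not independent support. The 3 factor groups stood at 19.2% to 42.8% of the empty vector level with SKM, 20.7% to 44.6% with OSKM and 25.3% to 34.4% with G3SKM. In bulk RNA, fewer cells that express a gene and less of its RNA per cell cannot be told apart.

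**Figure D2:**
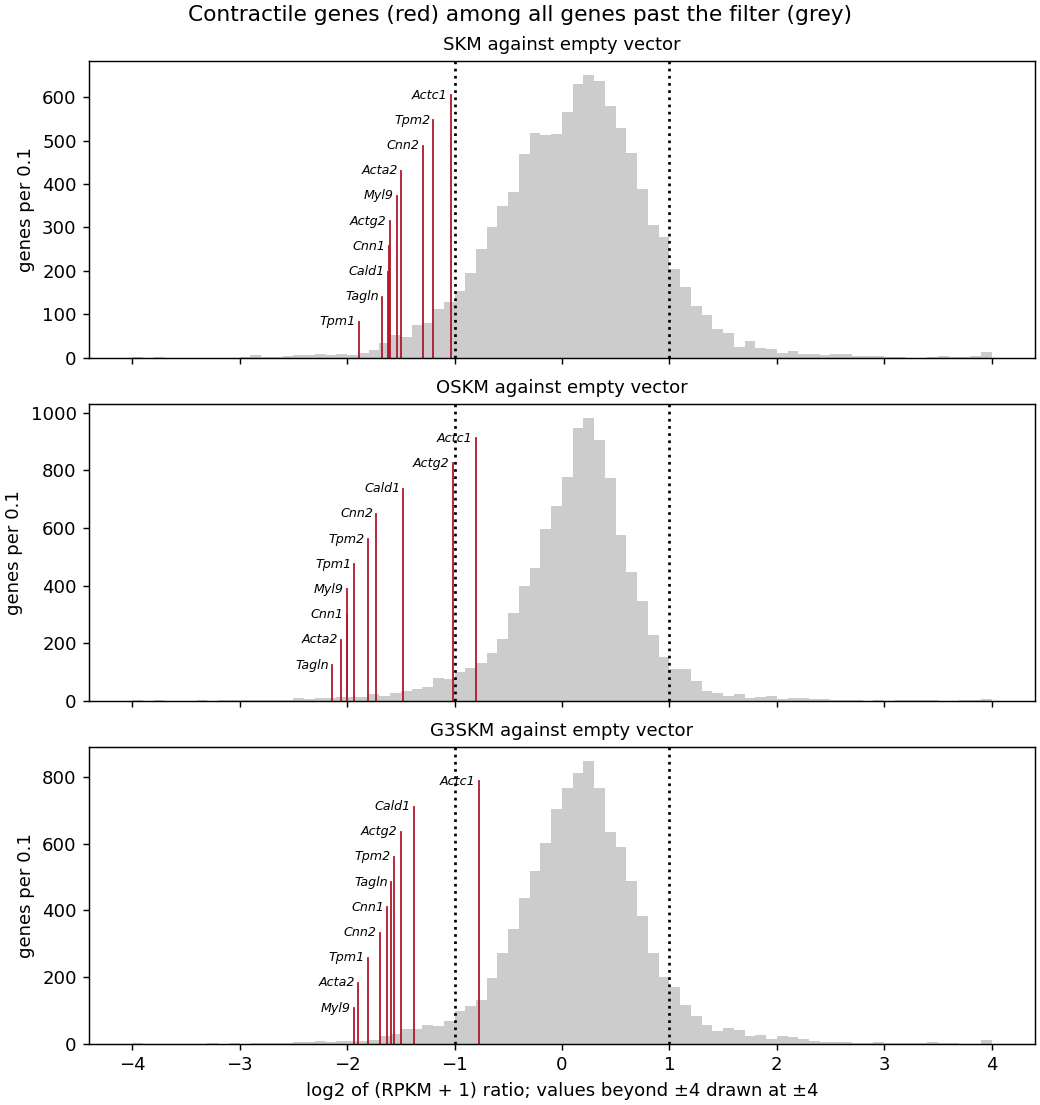
Log2 ratio of RPKM + 1 against empty vector for the contractile genes (red lines with names, whose heights only separate the names) over the histogram of all genes past the filter (grey, genes per 0.1), 1 panel per factor group. Dotted lines mark the rule of 1 in size, and all 10 red lines lie at or below -1.03 in the SKM panel while Actc1 lies above -1 in the other panels.

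Among the actins, Acta2, the smooth muscle alpha-actin that marks myofibroblasts, was at 255 RPKM with empty vector, 89.5 with SKM, 60.5 with OSKM and 67.5 with G3SKM. The empty vector value was high and the other 3 were low, 2.84-fold lower in SKM, 4.21-fold lower in OSKM and 3.77-fold lower in G3SKM. Actg2, the gamma-actin of enteric smooth muscle, was at 10.5 RPKM with empty vector, 2.79 with SKM, 4.70 with OSKM and 3.07 with G3SKM. It was 3.77-fold lower in SKM than in empty vector (95% counting interval 3.64 to 3.90) and 2.24-fold lower in OSKM (2.19 to 2.30). Actg2 was thus the member with the highest share of its empty vector level under OSKM, 44.6%.

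Actc1, the cardiac alpha-actin that embryonic skeletal muscle also makes, was at 1.73 RPKM with empty vector, 0.331 with SKM, 0.564 with OSKM and 0.594 with G3SKM. These values rest on 1202, 112, 264 and 378 reads. The raw ratio was 5.22-fold lower in SKM than in empty vector (counting interval 4.30 to 6.39), the steepest of the 10, while its log2 ratio of RPKM + 1 was only -1.03 because the added 1 weighs on a low gene. In OSKM and G3SKM the log2 ratios were -0.80 and -0.77, under the rule, and on the exon-length scale they were -1.27 and -1.22, past it, beside 4.92% of 14849 and 4.87% of 14901 genes called lower there. An annotated transcript, A530058N18Rik, covers the whole Actc1 span on the opposite strand. Whether reads were counted by strand is not given in the sources used here, so reads of that transcript could be part of the Actc1 count. Of the 1568 stretches of 50 bases in annotated Actc1 transcripts, 0 occur in a transcript of another gene.

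Tropomyosins lie along the actin filament and control access of myosin. Tpm1 was at 66.2 RPKM with empty vector, 17.1 with SKM, 16.6 with OSKM and 18.2 with G3SKM. Tpm2 was at 70.0 RPKM with empty vector, 30.01 with SKM, 19.3 with OSKM and 23.1 with G3SKM. Both were highest in empty vector, but the 3 factor groups were near one another for Tpm1 and spread further apart for Tpm2. Tpm1 was 3.87-fold lower in SKM than in empty vector (3.82 to 3.92), with a log2 ratio of RPKM + 1 of -1.89. Tpm2 was 2.33-fold lower (2.29 to 2.38), on the deposited values a smaller ratio than that of any other member. That place did not hold once the GC content of transcripts was taken into account, as given below.

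Calponins and transgelin bind along the same filaments and restrain or stabilise them. Tagln, the transgelin widely used as an early smooth muscle marker, was at 362 RPKM with empty vector, 113 with SKM, 81.7 with OSKM and 119.5 with G3SKM. Cnn1, the calponin of differentiated smooth muscle, was at 17.3 RPKM with empty vector, 5.01 with SKM, 3.58 with OSKM and 4.95 with G3SKM. Cnn2, the calponin found in many cell types, was at 86.9 RPKM with empty vector, 34.9 with SKM, 25.5 with OSKM and 26.1 with G3SKM. For Tagln and Cnn1 the SKM and G3SKM values were near each other and the OSKM value was lowest, whereas for Cnn2 the OSKM and G3SKM values were near each other. In SKM, Tagln was 3.21-fold, Cnn1 3.46-fold and Cnn2 2.49-fold lower than in empty vector. Of the 50-base stretches in Tagln transcripts, taken without regard to strand, 58.3% also occur in another annotated gene. Most of these lie in an antisense transcript, Gm48529, which is not among the genes listed here. The 58.3% is a share of sequence and not of reads, and its effect on the Tagln value was not tested.

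Myl9, the regulatory light chain whose phosphorylation starts contraction in smooth muscle, was at 91.4 RPKM with empty vector, 30.9 with SKM, 22.1 with OSKM and 23.2 with G3SKM. It was 2.96-fold lower in SKM than in empty vector (2.90 to 3.02) and 4.14-fold lower in OSKM (4.05 to 4.23). Cald1, caldesmon, which binds actin, tropomyosin and myosin and inhibits their interaction, was at 9.26 RPKM with empty vector, 2.34 with SKM, 2.69 with OSKM and 2.96 with G3SKM. Cald1 was 3.96-fold lower in SKM than in empty vector (3.91 to 4.02), and its lowest value was that of SKM. Both the activating light chain and the inhibitor of contraction were thus lower in all 3 factor groups.

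These intervals cover counting error in the recovered reads only, and amplified reads are not independent molecules. Acta2, Tagln and Cnn1 did not give whole numbers of reads (within 0.05), so their reads and exon-length levels are approximate and no interval is given for them. The ratio between SKM and empty vector also followed the GC content of transcripts across all genes (Spearman correlation 0.496, a description across genes). With the running median over 20 GC bins taken out, 10 of 10 were still called lower, beside 4.26% of 9455 genes lower and 6.01% higher, and their median was -1.60. Cald1, with the lowest GC content of the 10 at 45.01%, moved from -1.62 to -1.20, and Myl9, with the highest at 56.6%, moved from -1.54 to -1.87. Tpm2, at 55.1%, moved from -1.20 to -1.51, and its fall was then larger than those of Acta2 and Cnn2 (both -1.46) and Cald1. For OSKM and G3SKM against empty vector, the correlation of the ratio with GC content was 0.06 and -0.002.

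No contractile gene that passed the filter was called in OSKM or G3SKM against SKM. With OSKM against SKM, 0 of the 9 genes past the filter were called, beside 1.64% of 10211 genes called lower and 2.55% called higher. With G3SKM against SKM it was again 0 of 9, beside 1.1% called lower and 4.43% called higher among 10214 genes. Actc1 was below the filter in both comparisons. Few of all genes were called in either, so a count of 0 does not set the contractile genes apart. The smaller differences were unequal. In OSKM against SKM, log2 ratios were -0.61 for Tpm2, -0.56 for Acta2, -0.46 for Tagln and Myl9, -0.44 for Cnn2, -0.39 for Cnn1, -0.04 for Tpm1, 0.15 for Cald1 and 0.59 for Actg2. In G3SKM against SKM they were -0.40 for Acta2, Cnn2 and Myl9, -0.36 for Tpm2, -0.02 for Cnn1, 0.08 for Tagln, 0.09 for Tpm1, 0.10 for Actg2 and 0.25 for Cald1.

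Actg2 went the other way from Acta2 with OSKM. It was 1.68-fold higher in OSKM than in SKM (counting interval 1.62 to 1.75) and 1.53-fold higher than in G3SKM (1.48 to 1.58), and its log2 ratio to SKM was 0.65 with the GC trend removed. Whether this exceeds the spread between replicates cannot be judged from 1 value per group. In both comparisons with SKM, the ratios of all genes were lower at higher GC content (Spearman correlation -0.708 for OSKM and -0.715 for G3SKM). With that trend removed, Cald1 was at -0.17 in OSKM and -0.06 in G3SKM, so its direction turned, and Myl9 came to -0.14 and -0.09. In G3SKM against SKM, Tpm1 and Cnn1 also turned, to -0.02 and 0.02. The deposited levels put OSKM lowest for 7 genes and SKM lowest for 3 (Actc1, Actg2 and Cald1), and with the GC trend removed the counts were 8 and 2. Sox2, Klf4 and Myc had lower values in OSKM and G3SKM than in SKM, as given above, and their part in these differences was not tested.

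**Figure D3:**
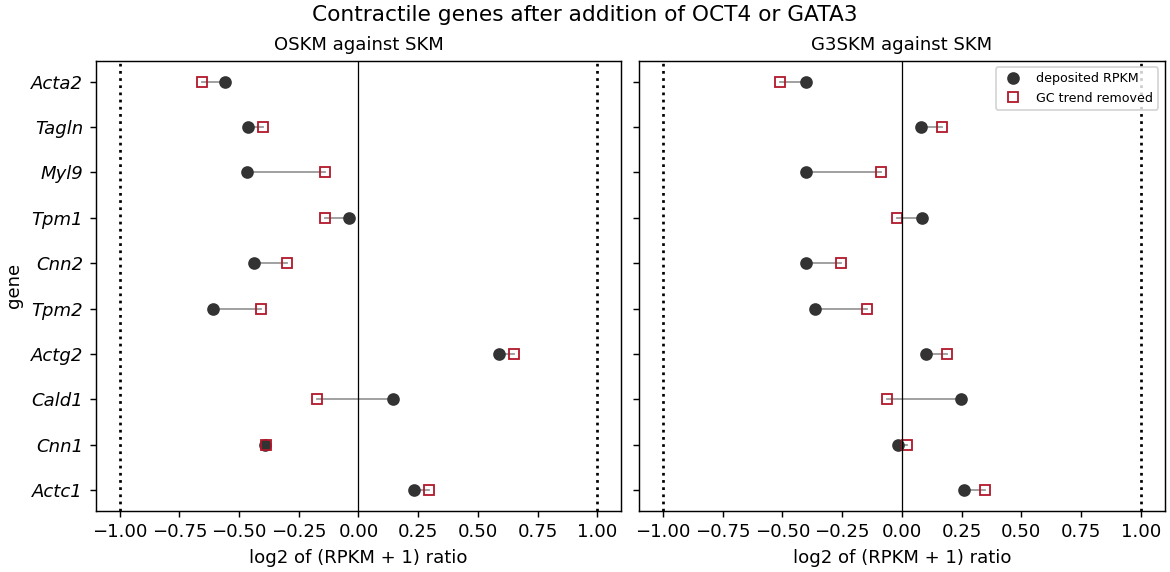
Log2 ratio of RPKM + 1 for each contractile gene in OSKM against SKM (left) and G3SKM against SKM (right), as deposited (filled circles) and with the GC trend removed (open squares), with dotted lines at the rule of 1 in size. No gene reaches a dotted line. In the left panel the extremes are Actg2 at 0.59 and Tpm2 at -0.61 among the filled circles, and Actg2 at 0.65 and Acta2 at -0.66 among the open squares.

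OSKM and G3SKM were then set side by side, which was possible because the SKM column is identical in the tables. None of the 9 genes past the filter was called, beside 2.25% of 10222 genes called lower and 0.724% called higher. Here too the count does not set these genes apart. The median of the 9 was -0.13. Tagln had the lowest ratio, -0.54, Cnn1 stood at -0.38, and Actg2 at 0.49 was the 1 gene of the 9 above 0.

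All of the 10 genes but Cald1 belong to families with paralogs that other cells make, and these were used to ask how the makeup of each family differed between groups. On the exon-length scale, Acta2, Actg2 and Actc1 together held 34.6% of the summed level of the 6 actins with empty vector, 24.0% with SKM, 20.8% with OSKM and 26.5% with G3SKM, where the rest was mainly the cytoplasmic actins Actb and Actg1. Acta2 alone, at 1681 RPKM, lay between Actg1 (1620) and Actb (1845) in empty vector. This order, and the family shares that include Acta2, Tagln or Cnn1, are approximate because the spans of these genes are uncertain. Myl9 held 63.5% of the regulatory light chains with empty vector, 44.7% with SKM, 40.0% with OSKM and 48.5% with G3SKM, the rest being Myl12a and Myl12b. Tagln held 80.4% of the transgelins with empty vector, 62.3% with SKM, 62.4% with OSKM and 72.0% with G3SKM, and Tagln2 nearly all of the rest. In these 3 families the share of the contractile gene was highest in empty vector.

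Without correction for the GC trend, the tropomyosins were unlike those families in SKM. With that trend removed, the log2 ratio in SKM against empty vector moved from -1.20 to -1.51 for Tpm2 and from -1.89 to -1.86 for Tpm1. The effect of the trend on the family shares was not tested. Tpm1 and Tpm2 together held 46.9% of the 4 tropomyosins in empty vector and 46.7% in SKM, and Tpm4, a tropomyosin of non-muscle cells, was lower in SKM too, at 138 RPKM against 498 in empty vector. In OSKM and G3SKM they held 35.4% and 40.4%. Cnn1 and Cnn2 held 73.8% of the calponins with empty vector, 68.6% with SKM, 60.9% with OSKM and 63.9% with G3SKM, beside Cnn3.

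**Figure D4:**
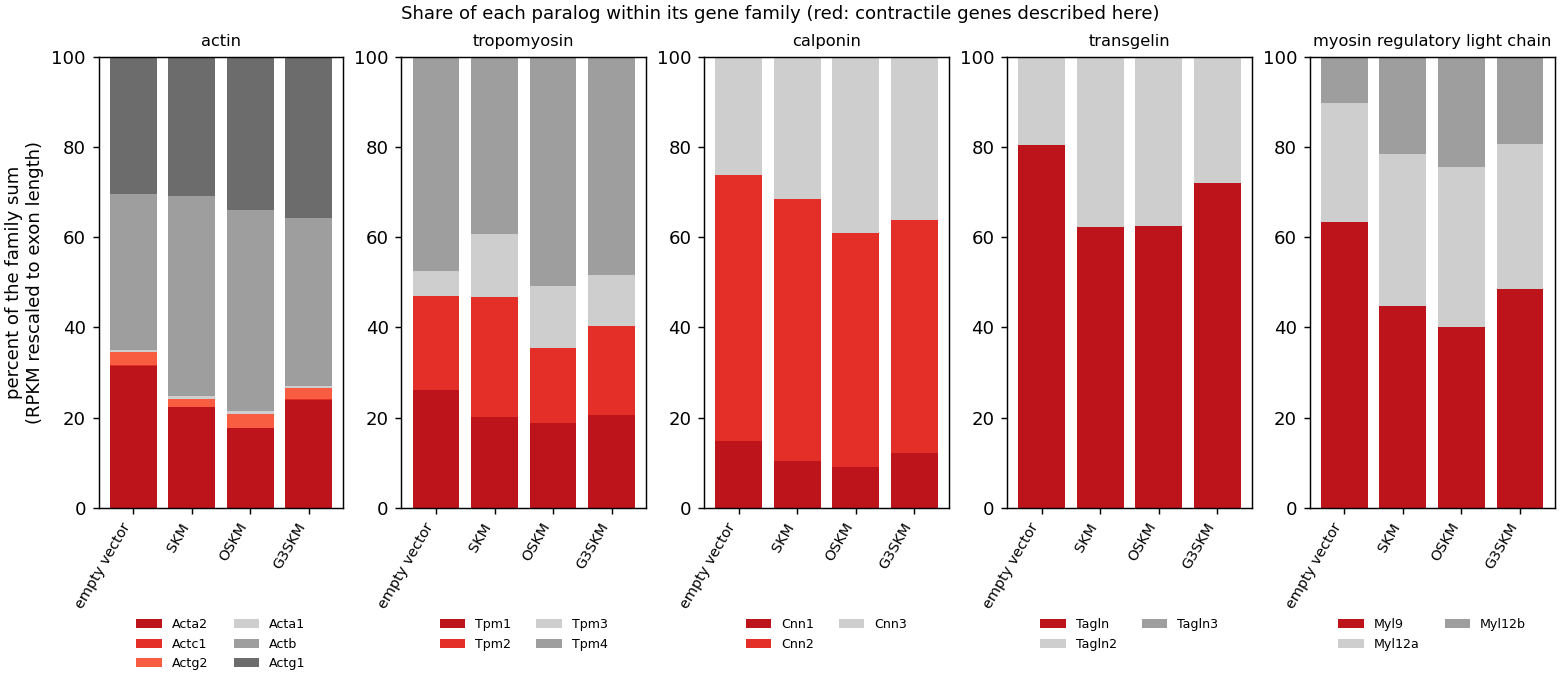
Percent of the summed level (RPKM rescaled to exon length) that each paralog holds within 5 gene families, with 1 stacked bar per group. Red segments are the contractile genes and grey segments their paralogs, and the red part is largest in empty vector in every family, at 46.9% against 46.7% in SKM for the tropomyosins.

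Other genes of the contractile system were counted in lists by role, with the background shares given above. Of the paralogs outside the 10 genes, 1 of 8 past the filter was called lower in SKM against empty vector (Tpm4, log2 ratio -1.79). Actg1 at -0.99 and Cnn3 at -0.91 came under the rule, and the counts were 2 of 8 in OSKM and 4 of 8 in G3SKM. Of the myosin II subunits, 0 of 5 were called in SKM and 2 of 5 were called lower in each of OSKM and G3SKM. Myh9, the main non-muscle myosin heavy chain of fibroblasts, was at 27.1 RPKM with empty vector, 14.0 with SKM, 9.18 with OSKM and 8.24 with G3SKM. With the GC trend removed, 2 of 5 were called lower in SKM also.

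Regulators of myosin phosphorylation did not share a direction. In SKM against empty vector, 1 of 8 was called lower, Rock2, a kinase that promotes contraction, at -1.29, and 1 was called higher, Ppp1r14a, an inhibitor of myosin phosphatase that smooth muscle expresses, at 1.07. Ppp1r14a was at 2.81 RPKM with empty vector, 7.01 with SKM, 2.64 with OSKM and 4.04 with G3SKM, high in the SKM group alone. With the GC trend removed, 2 of the 8 were called lower and 0 higher.

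On the deposited scale, which divides by a span with introns, Srf was the 1 gene past the filter of the 4 on the list of SRF and its coactivators. It was at 14.9 RPKM with empty vector, 9.40 with SKM, 5.67 with OSKM and 5.40 with G3SKM, with log2 ratios against empty vector of -0.62, -1.26 and -1.32. Srf was thus under the rule in SKM, where all 10 contractile genes were past it, and past the rule in the other groups. With the GC trend removed Srf was called lower in SKM as well. On the exon-length scale, 3 of the 4 genes passed the filter. There the coactivator gene Mrtfa was at 9.41 RPKM with empty vector, 9.69 with SKM, 6.49 with OSKM and 6.52 with G3SKM. Mrtfb was at 3.16, 4.79, 4.26 and 3.71 RPKM in the same order of groups.

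Focal adhesion and stress fibre genes, which anchor the contractile filaments to the membrane, were called lower for 6 of 16 in SKM, 10 of 15 in OSKM and 12 of 15 in G3SKM, and 0 were called higher in any of these. Csrp1, an actin-associated LIM protein, was at -1.61 in SKM, Flna, which crosslinks actin, at -1.56, and Fermt2, an integrin activator, at -1.43. Filip1l at 0.37 and Pxn (paxillin) at 0.19 were above 0. Of the differentiated smooth muscle markers, 0 of 5 past the filter were called in SKM, 4 of 5 were called lower in OSKM and 2 of 5 in G3SKM, and with the GC trend removed the SKM count was 2 of 5. Lmod1 was at -0.95, Cspg4 (a pericyte proteoglycan) at -0.80 and Smtn at -0.33 in SKM.

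Of 9 genes listed as TGF-beta ligands, receptors and targets, 5 passed the filter, and neither receptor (Tgfbr1, Tgfbr2) was among them. Of those 5, 3 were called lower in SKM and 5 in each of OSKM and G3SKM. On the exon-length scale all 9 passed the filter, and Tgfbr1 and Tgfbr2 were at 6.47 and 7.64 RPKM in empty vector. The matricellular protein gene Ccn2 was at -2.99 in SKM and the ligand gene Tgfb3 at -1.33. The log2 ratio of Ccn2 in SKM was below that of every contractile gene.

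**Figure D5:**
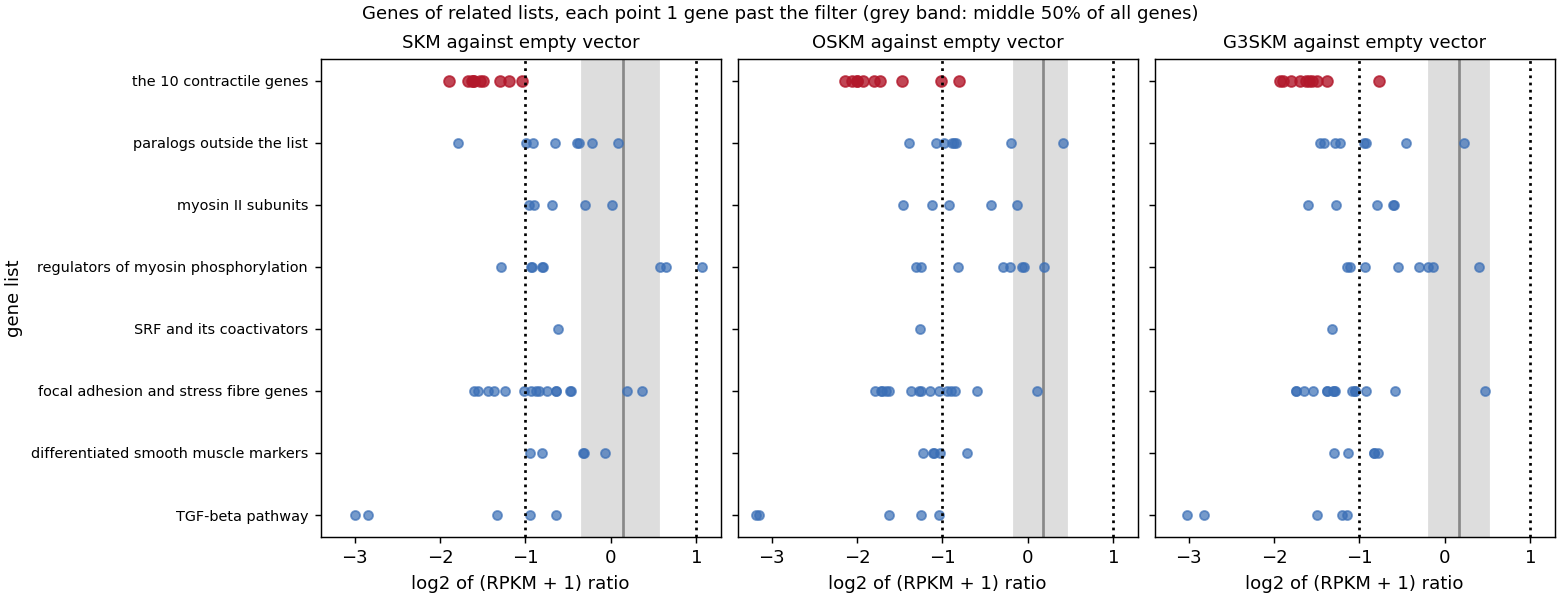
Log2 ratio of RPKM + 1 against empty vector for each gene past the filter in the 10 contractile genes (red) and 7 related lists (blue), 1 panel per factor group, with dotted lines at the rule of 1 in size. The grey band holds the middle 50% of all genes with their median as a line, and the red points lie left of the band in each panel.

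Markers of other cell types moved between the same groups. On the exon-length scale, 8 macrophage markers summed to 142 RPKM in empty vector and to 13.8, 5.39 and 10.7 in SKM, OSKM and G3SKM. The sum of 7 pericyte markers was 86.5 RPKM in empty vector and 37.1, 26.4 and 24.2 in those groups, though Rgs5, a defining pericyte marker, was at most 0.461. The sum of 12 fibroblast markers was 3040 RPKM in empty vector and 1993, 1198 and 1311 in the others, but its members did not all share that order. Col1a1, which encodes a collagen chain and had the highest level among them, was at 851 RPKM with empty vector, 903 with SKM, 368 with OSKM and 426 with G3SKM. Dcn (decorin) was at 1.71 RPKM in empty vector and 2.94, 8.01 and 3.62 in the others, and Lum (lumican) at 1.11 and 0.660, 3.60 and 1.32. The sum of 10 keratinocyte and epithelial markers was 3.49 RPKM in empty vector and 194, 94.8 and 121 in the others. The part of these cell types in the lower levels of the contractile genes was not tested. Of the 12 skeletal muscle markers, which include Actc1, the sum was 45.9 RPKM in empty vector and 33.6, 23.1 and 21.2 in the others, with Acta1 and Des holding most of it and the defining factors Myod1 and Myog at or near 0. The 8 cardiac markers summed to at most 2.77 RPKM and the 6 endothelial markers to at most 3.34 in any group.

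Genes with the pattern most like that of the leading members were taken by the Euclidean distance between profiles of log2 RPKM + 1 over the 4 groups, each centred on its mean, among 2688 protein-coding genes with a symbol of their own that reached 5 RPKM in a group. For Acta2 they were Nr4a1 (distance 0.0700), Myl9 (0.0754), Lox (0.0846), Id1 (0.126) and Itga5 (0.143). Lox, a lysyl oxidase that crosslinks collagen, was at 162 RPKM with empty vector, 54.1 with SKM, 36.5 with OSKM and 43.7 with G3SKM. For Tagln they were Cnn1 (0.129), F3 (0.144), Cxcl12 (0.163), Lif (0.181) and Igf2 (0.182). Among the 10 contractile genes, Acta2 and Myl9 had the closest profiles, and Acta2 and Actc1 the farthest apart, at 1.02.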

How the data were processed

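Cells of 4 groups were profiled by RNA-seq, 1 value per group and gene standing for 2 replicates. Per the file headers, the authors deposited RPKM, and with them the log2 ratio of each table's groups, as 3 tables whose SKM columns are identical. TopHat 1.3.0 and build mm9 are named in the submitters' processing notes. The sources used here do not say which counter was used, whether it used strand, or how replicates were combined. A deposited value of 0.001 was read as 0. Symbols, spans, exon lengths and GC came from GENCODE M21, whose build is later than mm9, and gene coordinates were therefore left out.

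RPKM times span fell on whole reads (within 0.05) for 74.5% to 76.6% of genes with 1 to 1000 reads, against 10% by chance. This gave depth and reads, and Clopper-Pearson intervals for ratios of reads. Ratios used a pseudocount of 1 RPKM. With 1 value per group no test could be made, and a rule of size was used. Alternatives were 0.1 and 5 as pseudocount, no filter and stricter filters, a rule of 2, TMM-like scaling, exon length and GC. Up to 3 genes risen and 3 fallen were named per list, and all 10 contractile genes; 1 gene that this rule names is not reported here. Like patterns were sought among genes at 5 RPKM or more, 5 for each of Acta2 and Tagln. The 10 genes and the lists were chosen with earlier results of these data known. The scripts were tested on simulated data. The work was done in Python 3.11.15 with SciPy 1.17.1, numpy 2.4.6 and pandas 2.3.3.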

Additional observations from a re-analysis of the deposited data

How the results depend on the processing

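Under 12 alternatives, each of the 119 log2 ratios computed for the contractile genes against empty vector kept its direction in SKM, and likewise 119 of 119 in OSKM and in G3SKM. With a rule of 2 in place of 1, the number of genes called lower was 0 in SKM, 4 in OSKM and 0 in G3SKM, which a stricter rule brings by construction. Under the other 11 alternatives it lay between 7 and 10 in each of these, 7 being the count with a pseudocount of 5 RPKM. The share of all genes called is not given for most of these alternatives, among them the rule of 2. These counts therefore do not show whether the contractile genes stand apart under them. No gene was called in OSKM or G3SKM against SKM, or in OSKM against G3SKM, under any of the 12. Directions held for 107 of 109 values in OSKM against SKM, 104 of 109 in G3SKM against SKM and 108 of 108 in OSKM against G3SKM. The exceptions came with the GC trend removed, alone or on the exon-length scale, and were Cald1 in OSKM, and Cald1, Tpm1, Cnn1 and Myl9 in G3SKM. No paired analysis was possible because each group has 1 value. Depth limits Actc1 most, with 112 reads in SKM, and no alternative gives the spread between replicates.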
